A study of Mus musculus with 18 samples.

Results

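The 9 genes described here mark the step from cortical progenitor to neuron: the proneural factors Neurog1 and Neurog2, their early targets Gadd45g and Btg2, the intermediate progenitor factors Insm1 and Eomes (also called Tbr2), and the later basic helix-loop-helix (bHLH) factors Neurod1, Neurod2 and Neurod6. They were taken by gene symbol from 32941 genes measured by RNA sequencing in 18 mouse libraries, and all 9 were present in each of the 4 tables. The study concerned peroxisomal ether lipid synthesis in cortical neurogenesis. Values were RPKM, that is, reads scaled to exon length and to the library's read total, so levels of different genes can be set side by side on this scale.

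Of the 18 libraries, 6 were WT brain at embryonic days 11, 12, 13, 14, 16 and 18 (E11 to E18), with 1 library per stage. The design text of the study speaks of cortex or primary stem cells in triplicate, while the labels of the stages say brain. Another 4 were primary neural stem cells, 2 labelled WT with a scrambled short hairpin (NSC-Scramble) and 2 labelled PEX7-knockdown with a Pex7 hairpin (NSC-Pex7sh). The other 8 were labelled brain and formed a first set, 2 WT controls (Ctrl1) against 2 with PLAAT3-PEX11 overexpression (PLA1), and a set named for neurons, 2 WT controls (Neuron-ctrl) against 2 with PLAAT3-PEX11 overexpression (Neuron-PLA). For these 12 libraries the labels give no age, strain, vector or promoter, and for the neuron set no method of preparation. Whether replicates were different animals or cultures is not stated, so each p-value between these libraries reflects library to library spread alone, which may be technical.

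Proneural factors are transcription factors that push a dividing radial glial cell to leave the cycle and become a neuron. They act as dimers with E proteins on a short DNA word called an E-box, they switch on the Notch ligands Dll1 and Dll3, and they are opposed by Hes and Id proteins. In the dorsal telencephalon Neurog2 starts the glutamatergic lineage, Eomes and Insm1 mark the intermediate progenitor that divides once more before its daughters differentiate, and Neurod1, Neurod2 and Neurod6 follow in the newborn neuron.

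Upstream sequences are shown for 2 pairs whose levels followed each other closely over the stages, Neurog2 with Eomes and Neurod2 with Neurod6. Each is the 200 bases before the gene's start as RefSeq places it on GRCm38.p6, 5′ to 3′ on the gene's strand, with every E-box in capitals. They lie at chr3:127632936-127633135 on the plus strand for Neurog2, chr9:118477989-118478188 on the plus strand for Eomes, chr11:98329646-98329845 on the minus strand for Neurod2 and chr6:55681264-55681463 on the minus strand for Neurod6. RefSeq promoters matched 8 of the 9 genes, with Insm1 the missing entry. For Neurog2, Eomes and Neurod2 the GENCODE start, which gives the gene positions printed with the values, differs by some bases from that of RefSeq, and 1 base of the Neurog2 window and 3 of the Neurod2 window lie in GENCODE exons.
Neurog2: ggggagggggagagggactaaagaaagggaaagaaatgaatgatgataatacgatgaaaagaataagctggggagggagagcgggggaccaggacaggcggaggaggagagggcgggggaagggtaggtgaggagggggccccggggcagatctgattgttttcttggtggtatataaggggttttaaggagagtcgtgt
Eomes: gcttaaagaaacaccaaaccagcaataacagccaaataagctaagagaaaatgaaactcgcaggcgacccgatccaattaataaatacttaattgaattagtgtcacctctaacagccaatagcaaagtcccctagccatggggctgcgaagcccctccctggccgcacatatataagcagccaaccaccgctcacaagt
Neurod2: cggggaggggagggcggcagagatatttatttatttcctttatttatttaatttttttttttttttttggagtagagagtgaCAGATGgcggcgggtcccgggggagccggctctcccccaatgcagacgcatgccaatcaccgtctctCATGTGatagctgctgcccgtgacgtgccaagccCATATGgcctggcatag
Neurod6: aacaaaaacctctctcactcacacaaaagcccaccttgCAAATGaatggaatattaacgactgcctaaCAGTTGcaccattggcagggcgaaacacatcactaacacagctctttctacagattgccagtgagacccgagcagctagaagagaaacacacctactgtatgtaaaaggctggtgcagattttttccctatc
The motif searched was CANNTG, which reads the same on both strands. Neurod2 held 3 of these words and Neurod6 held 2, while the windows of Neurog2 and Eomes held 0. Over 250 bases upstream the counts were 3 for Gadd45g, 1 for Neurod1 and 0 for Neurog1 and Btg2. For comparison, 66.2% of 32841 mouse promoter windows of that length held at least 1 and 12.2% held 3 or more. The more specific words CAGATG and CAGCTG, each searched on both strands and each a case of CANNTG, stood in 14.4% and 13.0% of all windows, and among these genes in Neurod2 (CAGATG) and Gadd45g (CAGCTG). A match is a description of the letters only.

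Read totals were 41501880 to 54373317 per stage library and 16147911 to 28104927 per perturbation library. Radial glial markers (8 genes, Pax6, Sox2 and Nes among them) summed to 823 to 1160 RPKM in the neural stem cells, which also carried 574 to 744 RPKM of 6 neuronal markers. Markers of other cells differed between the 2 brain-labelled sets: the 6 microglial markers summed to 374 to 411 RPKM in Ctrl1, 116 to 118 RPKM in Neuron-ctrl and 14.02 to 34.2 RPKM in the stages. The 5 endothelial markers summed to 0.820 to 0.949 RPKM in Ctrl1, against 19.2 to 19.8 RPKM in Neuron-ctrl and 18.8 to 39.3 RPKM in the stages. Pex7 was at 1.19 and 1.22 RPKM with the scrambled hairpin and at 0.5004 and 0.669 RPKM with the Pex7 hairpin, without overlap, but averaged below the filter and was not tested. Plaat3 was at 0.413 and 0.431 RPKM in Ctrl1 against 31.4 and 29.1 RPKM in PLA1, and at 0.0699 and 0.230 RPKM in Neuron-ctrl against 19.0 and 20.8 RPKM in Neuron-PLA. The libraries thus lay on the labelled side for Pex7 and Plaat3.

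The stages asked how the genes followed one another through neurogenesis. The highest stage was E11 for Neurog1, E12 for Btg2, E14 for 6 genes and E16 for Neurod1. With 1 library per stage, stages of close level are not resolved. Gadd45g was at 98.2% of its highest level at E11. Insm1, Neurod2 and Neurod6 were at 94.9%, 98.3% and 99.2% of theirs at E16. At E18 the proneural factors, their early targets and Eomes stood at 0.237% to 14.02% of their highest level, whereas Neurod2 and Neurod6 still stood at 56.9% and 56.2% of theirs. In such bulk samples, fewer cells of a type and less RNA per cell cannot be told apart.

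Neurog1 (chr13:56250478-56252163, mm10, minus strand), the less abundant of the proneural pair, was at 13.8, 12.0, 8.41, 9.87, 2.60 and 0.0327 RPKM from E11 to E18. It was high at E11 and E12, low by E16, and at E18 rested on 3 reads, with a Poisson 95% interval of 0.00675 to 0.0956 RPKM that covers counting error only. Neurog2 (chr3:127633135-127635631, plus strand), the principal proneural factor of the dorsal telencephalon, was at 74.5, 110, 119, 123, 68.8 and 6.69 RPKM. Its level was broad and high from E12 to E14, and 10.3-fold lower at E18 than at E16. The RPKM of Neurog2 exceeded that of Neurog1 by 5.39-fold at E11, 12.5-fold at E14 and 26.4-fold at E16, so Neurog1 declined earlier.

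Gadd45g (chr13:51846678-51848468, plus strand), a small growth arrest protein induced by proneural factors, was at 95.8, 79.4, 82.2, 97.5, 47.8 and 11.3 RPKM. Its level at E11 was 98.2% of its highest, so unlike Neurog2 it was already near its maximum at the first stage. Btg2 (chr1:134075170-134079120, minus strand), an antiproliferative gene that marks progenitors about to produce neurons, was at 31.3, 37.4, 33.1, 32.4, 16.7 and 5.24 RPKM. The first 4 stages of Btg2 lay within 83.7% and 100% of its highest level, and E16 and E18 lay below all of them.

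Insm1 (chr2:146221921-146225020, plus strand), a zinc finger factor that promotes intermediate progenitor formation, was at 31.6, 46.4, 47.7, 57.6, 54.7 and 16.4 RPKM. Eomes (chr9:118478212-118486132, plus strand), a T-box factor and the usual intermediate progenitor marker, was at 35.3, 55.6, 59.4, 74.5, 45.3 and 4.41 RPKM. Both were highest at E14, but at E16 Insm1 was still at 94.9% of its highest level and Eomes at 60.7%, and at E18 they stood at 28.4% and 5.91%. The RPKM ratio of Neurog2 to Eomes moved little, from 2.11 at E11 to 1.65 at E14 and 1.52 at E18, while the highest stage of each exceeded its lowest by 18.4-fold for Neurog2 and 16.9-fold for Eomes.

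Neurod1 (chr2:79452521-79456751, minus strand), which acts in late intermediate progenitors and young neurons, was at 10.8, 18.8, 23.5, 24.2, 28.2 and 9.77 RPKM. Neurod2 (chr11:98325415-98329648, minus strand), a factor of differentiating projection neurons, was at 16.7, 81.6, 148, 198, 195 and 113 RPKM. Neurod6 (chr6:55677822-55681263, minus strand), another factor of young glutamatergic neurons, was at 26.1, 175, 331, 398, 395 and 224 RPKM. Between E11 and E12 alone the level was 4.89-fold higher for Neurod2 and 6.70-fold higher for Neurod6, against 1.75-fold for Neurod1 and 1.47-fold for Neurog2. The ratio of Neurod6 to Neurog2 in RPKM went from 0.350 at E11 to 3.24 at E14 and 33.5 at E18.

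**Figure D1:**
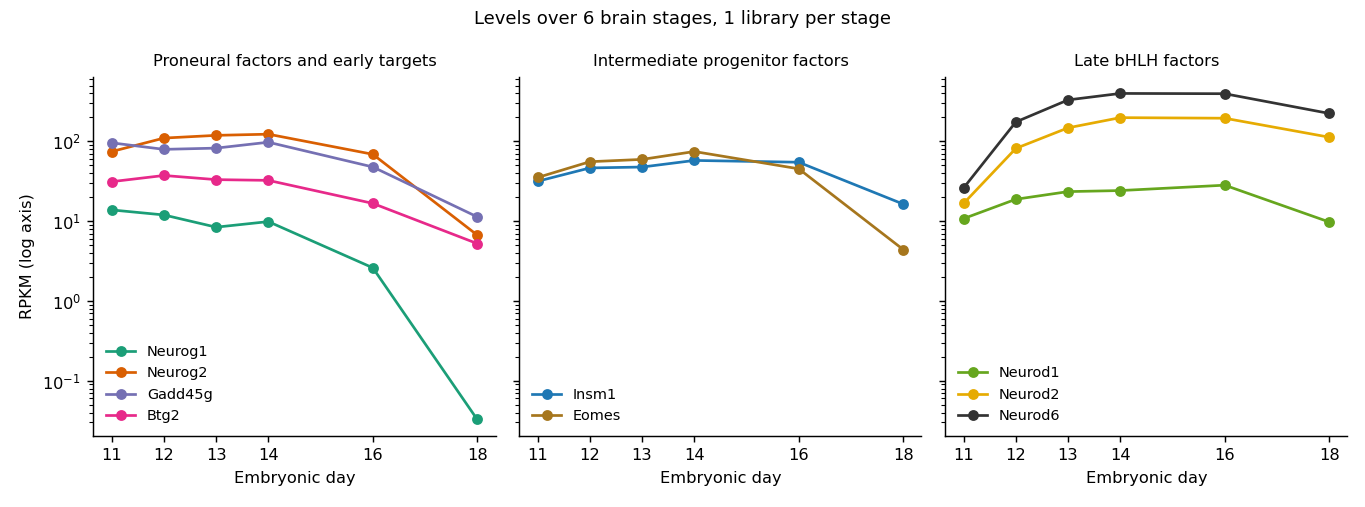
RPKM of the 9 genes (log axis) against embryonic day, 1 library per stage, with proneural factors and early targets on the left, intermediate progenitor factors in the middle and late bHLH factors on the right. Neurog1 ends at 0.0327 RPKM at E18, while Neurod6 rises from 26.1 RPKM at E11 to 398 RPKM at E14 and is at 224 RPKM at E18.

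**Figure D2:**
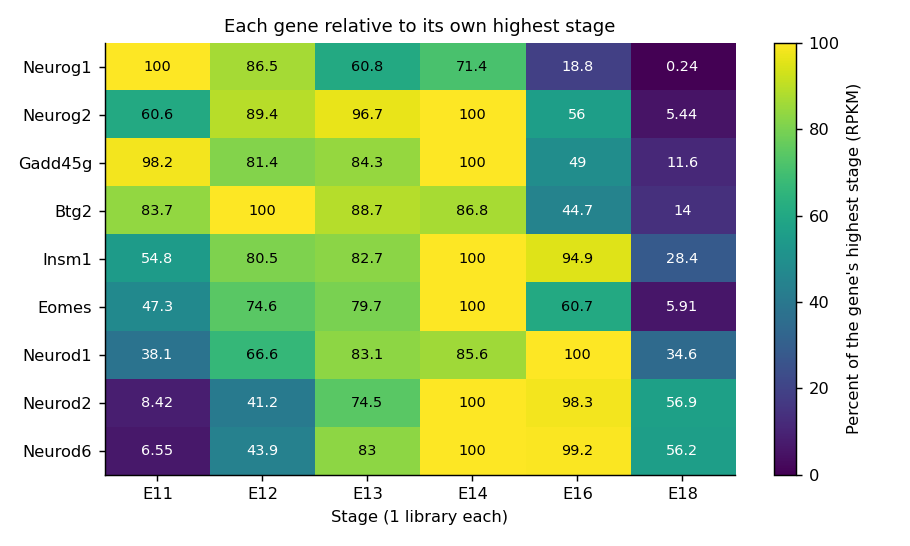
Level of each gene as a percent of its own highest stage (colour and number), for the 6 stages with 1 library each. Genes run from proneural to late bHLH. The highest stage is E11 for Neurog1, E12 for Btg2, E16 for Neurod1 and E14 for the others.

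Neurog2 and Eomes differed from each other over the 6 stages by a root mean square of 0.211 on the log2(RPKM + 1) scale after each was centred on its mean, and Neurod2 and Neurod6 by 0.173. Among 7514 genes averaging 5 RPKM or more, and leaving out the 9 themselves, Nhlh1, a bHLH gene of newborn neurons, was the nearest to both Neurog2 (0.145) and Eomes (0.272). Hmgb2 (0.470) and Tfap2c (0.4999) came next for Neurog2, and Celsr1 (0.429) and Cdon (0.434) for Eomes. Neurod6 had Ntng2 (0.268), Aldoc (0.295) and Cntn2 (0.363) as its nearest genes. The pattern of Nhlh1 was 22.7, 31.9, 33.9, 40.7, 16.1 and 1.46 RPKM from E11 to E18. These measures describe 6 points from 6 libraries and carry no test.

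A slope per embryonic day was fitted with limma to log2(RPKM + 1) for 12921 genes that averaged 1 RPKM or more, calling a gene at an adjusted p under 0.05. With 1 library per stage, the error of a slope was the deviation of the stages from the line, not a spread of replicates. By this fit 4 of the 9 genes fell (44.4%) and 0 rose. Of all genes tested 45.1% were called, so the share among the 9 was at the background, although 25.5% of all genes fell. The falls per day on the log2 scale were -0.54 (SE 0.07) for Neurog1 with an adjusted p of 0.00124 in limma, -0.35 (SE 0.07) for Btg2 with 0.00537, -0.39 (SE 0.08) for Gadd45g with 0.00864, and -0.45 (SE 0.14) for Neurog2 with 0.0382. The other slopes did not pass, at -0.36 for Eomes, -0.11 for Insm1, -0.01 for Neurod1, 0.30 for Neurod2 and 0.32 for Neurod6. The calls depended on E18: without that library Neurog1 still fell, Neurod1 rose by 0.23 per day (limma, adjusted p = 0.0394), and the slopes of Neurog2 (-0.04), Gadd45g (-0.16) and Btg2 (-0.18) were not called. The Neurog2 call was also lost without E12 (adjusted p = 0.0721 in limma) or without E13 (0.0579), and without the filter on low genes (0.0876), while Eomes was called as falling without E11 (0.0316) or without E16 (0.0483).

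A straight line cannot follow a gene that peaks in the middle, so neighbouring stages were also pooled as pairs, which puts development within a pair into the error. From E11 and E12 to E13 and E14, 0 of the 9 genes passed limma, as did 0% of all 12921 genes, of which 1067 had an unadjusted p under 0.05. The largest differences among the 9 were 2.40 (SE 0.79) for Neurod6 and 2.17 (SE 0.67) for Neurod2. From E13 and E14 to E16 and E18, 0 of the 9 passed, against 0.0155% of all genes, and 2538 genes had an unadjusted p under 0.05. All 9 were lower on average in the late pair, with a median of -1.69 on the log2 scale beside -0.07 over all genes, and values from -0.21 for Neurod2 to -2.40 for Neurog2. For Insm1, Neurod1, Neurod2 and Neurod6 the 2 pairs overlapped, and the lower mean rested on E18. Without E18 their differences were positive, at 0.061, 0.24, 0.19 and 0.12. Without E16, which left E18 alone as the late stage with its error borrowed from the other pairs, Neurog1, Neurog2, Gadd45g, Btg2, Insm1 and Eomes fell (limma, adjusted p from 0.00645 to 0.0224), and 1968 genes were called in all.

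The wider pathway was described with 4 lists: 11 proneural targets, 7 bHLH partners and relatives, 8 inhibitors of proneural activity and 9 paralogues of Gadd45g, Btg2, Insm1 and Eomes. Among proneural targets 7 of 11 fell with age and 0 rose in limma, with a median slope of -0.17 per day beside -0.02 for all genes, of which 25.5% fell and 19.6% rose. They included the Notch ligands Dll1 (-0.33) and Dll3 (-0.30), the Notch modifier Mfng (-0.43) and Hes6 (-0.14). Without E18 the list held 3 calls. The list summed to 507 RPKM at E11, 710 RPKM at E14, its highest stage, and 201 RPKM at E18. From the early to the mid pair 7 targets were higher and 4 lower on average, and from the mid to the late pair all 11 were lower, with 0 called. Of 7 partners tested 3 fell and 1 rose, beside 45.1% called among all genes. The E protein genes Tcf3 (-0.27) and Tcf12 (-0.24) and the bHLH gene Neurod4 (-0.15) fell, while Bhlhe22 rose by 0.47 per day. The Neurod4 call was lost without E12, E13 or E18 (limma, adjusted p from 0.0531 to 0.595). Among 8 inhibitors 5 fell, Id4 (-0.43), Hes1 (-0.37), Hey1 (-0.25) and Rest (-0.19) among them, and Id2 rose by 0.30 per day. Of 7 paralogues tested Btg3 and Gadd45a fell, by 0.24 and 0.23 per day, again near the share of all genes that fell. Beside these slopes, 6 cell cycle markers summed to 317 RPKM at E11 and 17.4 RPKM at E18, 6 neuronal markers to 943 and 2466 RPKM, and 4 erythroid markers to 1955 RPKM at E11, 610 to 718 RPKM from E12 to E16 and 253 RPKM at E18; their part in the stage values and slopes was not tested.

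The knockdown asked whether Pex7, a receptor for protein import into peroxisomes, affects these genes in neural stem cells. Neurog2 was at 12.0 and 8.02 RPKM with the scrambled hairpin and at 10.05 and 10.06 RPKM with the Pex7 hairpin. Eomes was at 7.45 and 5.16 RPKM against 6.11 and 5.39 RPKM. In both cases the Pex7 hairpin values lay between the scrambled ones.

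Insm1 was at 25.1 and 20.0 RPKM with the scrambled hairpin and at 21.9 and 24.9 RPKM with the Pex7 hairpin. Gadd45g was at 20.4 and 19.4 RPKM against 19.7 and 19.6 RPKM, and Btg2 was at 21.5 and 20.0 RPKM against 21.0 and 20.2 RPKM. These ranges overlapped in every case, and Gadd45g and Btg2 varied by at most 1.08-fold within a group. Neurod1 was at 5.68 and 7.004 RPKM against 6.96 and 7.01 RPKM, Neurod2 at 76.4 and 96.4 RPKM against 78.7 and 88.3 RPKM, and Neurod6 at 76.9 and 95.7 RPKM against 90.8 and 95.7 RPKM. Neurog1 was near the limit of detection, at 0.103 and 0.291 RPKM (3 and 9 reads) against 0.461 and 0.286 RPKM (14 and 9 reads), and was not tested.

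With limma 0 of the 8 genes tested passed, as did 0% of 12482 genes, of which 184 had an unadjusted p under 0.05. The log2 changes ran from -0.10 (SE 0.17) for Eomes to 0.13 (SE 0.11) for Neurod1, with adjusted p of 1.00 throughout, and limma-voom on recovered reads also called 0 genes, with 115 at an unadjusted p under 0.05. The scrambled libraries differed from each other more than the Pex7 pair did. Replicate 1 exceeded replicate 2 by 0.53 for Neurog2, 0.46 for Eomes and 0.32 for Insm1 on the log2 scale, and was lower by 0.26 to 0.33 for the Neurod genes, with an SD over all genes of 0.303, against 0.183 in the Pex7 pair. In the same libraries cell cycle markers summed to 173 and 93.1 RPKM, radial glial markers to 1160 and 823 RPKM and neuronal markers to 574 and 744 RPKM, each with the Pex7 pair in between. Leaving out 1 library turned the sign of each of the 8 changes at least once, and none was called. In the 4 pathway lists 0 genes passed.

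In the first overexpression set, which asked what PLAAT3-PEX11 does in brain, the early genes Neurog1 and Gadd45g rose and the late factors Neurod2 and Neurod6 fell. Neurog2, Btg2, the intermediate progenitor genes Insm1 and Eomes, and Neurod1 did not pass. That made 4 of 9 genes called in limma (44.4%), beside 29.6% of 11623 genes in all, of which 16.3% were higher and 13.2% lower. The share among these 9 genes was above the background, and that difference was not tested.

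Neurog1 was at 14.6 and 16.0 RPKM in Ctrl1 and at 23.2 and 26.8 RPKM in PLA1. The groups did not overlap, and the change was 0.67 (SE 0.11) on the log2 scale, 1.64-fold by the mean RPKM (limma, adjusted p = 0.00483). Gadd45g was at 203 and 209 RPKM in Ctrl1 and at 274 and 322 RPKM in PLA1, again without overlap, a change of 0.53 (SE 0.09) or 1.45-fold (limma, adjusted p = 0.00552). Without the filter on low genes, which tests more genes, the Gadd45g call was lost (adjusted p = 0.0669 in limma). Neurog2, the other proneural factor, was at 62.8 and 59.3 RPKM against 48.0 and 68.9 RPKM, so the controls lay between the PLA1 libraries (-0.08, SE 0.15, limma adjusted p = 0.703).

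Btg2 was at 257 and 242 RPKM in Ctrl1 and at 242 and 212 RPKM in PLA1, and its change of -0.14 (SE 0.08) did not pass (limma, adjusted p = 0.240). Insm1 was at 4.72 and 5.26 RPKM against 5.05 and 9.62 RPKM, and Eomes at 8.19 and 7.995 RPKM against 7.20 and 11.3 RPKM. In both genes PLA1 replicate 2 lay above the controls, as it also did for Neurog2. PLA1 replicate 1 lay between the controls for Insm1 and below both of them for Eomes and Neurog2. The differences between the PLA1 replicates, -0.81 for Insm1, -0.58 for Eomes and -0.51 for Neurog2 on the log2 scale, were larger than those of 98.5%, 95.2% and 93.4% of all genes. The changes of Insm1 (0.42, SE 0.25) and Eomes (0.14, SE 0.19) did not pass with both libraries (limma, adjusted p = 0.230 and 0.597). Without PLA1 replicate 1 both were called, at 0.83 and 0.43 (limma, adjusted p = 0.0160 and 0.0468), in a fit whose spread comes from the Ctrl1 pair alone, with PLA1 replicate 2 assumed to vary like it.

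Neurod6 was at 1299 and 1281 RPKM in Ctrl1 and at 809 and 733 RPKM in PLA1. Both PLA1 libraries were far below both controls, at 0.598 of the control mean, and the change of -0.74 (SE 0.07) passed (limma, adjusted p = 0.000696) and kept its call in every alternative run. Neurod2 was at 63.0 and 68.3 RPKM against 42.7 and 54.0 RPKM, at 0.736 of the control mean, a change of -0.44 (SE 0.12; limma, adjusted p = 0.0285). That call was lost without Ctrl1 replicate 2 (0.0834 in limma), without PLA1 replicate 1 (0.0723) and without the filter (0.140). Neurod1 was at 35.4 and 36.9 RPKM against 32.0 and 34.5 RPKM, which did not pass (-0.12, SE 0.08; limma, adjusted p = 0.319).

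Markers moved in the same libraries. The 6 cell cycle markers summed to 198 to 202 RPKM in Ctrl1 and 332 to 339 RPKM in PLA1, and 6 of 6 rose. Among all genes 16.3% were higher and 13.2% lower. Neuronal markers went from 578 to 606 RPKM down to 289 to 307 RPKM, where 4 of 6 fell, and radial glial markers from 289 to 303 RPKM up to 343 to 345 RPKM, where 5 of 8 rose and 1 fell. Microglial markers went from 374 to 411 RPKM down to 164 to 174 RPKM, and 6 of 6 fell. Interneuron and ventral forebrain markers went from 34.3 to 34.4 RPKM down to 15.0 to 18.1 RPKM, and 2 of 4 tested fell. The part of these shifts in the changes of Neurog1, Gadd45g, Neurod2 and Neurod6 was not tested.

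In the pathway lists 1 of 11 proneural targets rose and 2 fell, near the 29.6% called among all genes (16.3% higher, 13.2% lower), with a median of 0.03 beside 0.06 for all genes. Nhlh1 rose (0.45), while the somatostatin receptor gene Sstr2 (-0.43) and the cell cycle inhibitor gene Cdkn1c (-0.80) fell. Among 6 partners tested Tcf12 (0.61) and Tcf3 (0.58) rose and Nhlh2 fell (-1.08). Of 8 inhibitors 5 rose, with a list median of 0.41, including Id1 (1.42), Hes1 (1.04) and Hes5 (0.35), and Id2 fell (-0.59). Gadd45a (1.32), a paralogue of Gadd45g, was the only one called of 6 paralogues tested. It stood below 1 RPKM in both Ctrl1 libraries and passed the filter only through PLA1, so nothing is read from its call. No difference between a list's share and that of all genes was tested. The calls for Nhlh1, Cdkn1c, Tcf12 and Hes5 were each lost without 1 of the libraries Ctrl1 replicate 1, Ctrl1 replicate 2 or PLA1 replicate 2 (limma, adjusted p from 0.0525 to 0.0888), and without the filter 1 target, 1 partner and 2 inhibitors were called.

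**Figure D3:**
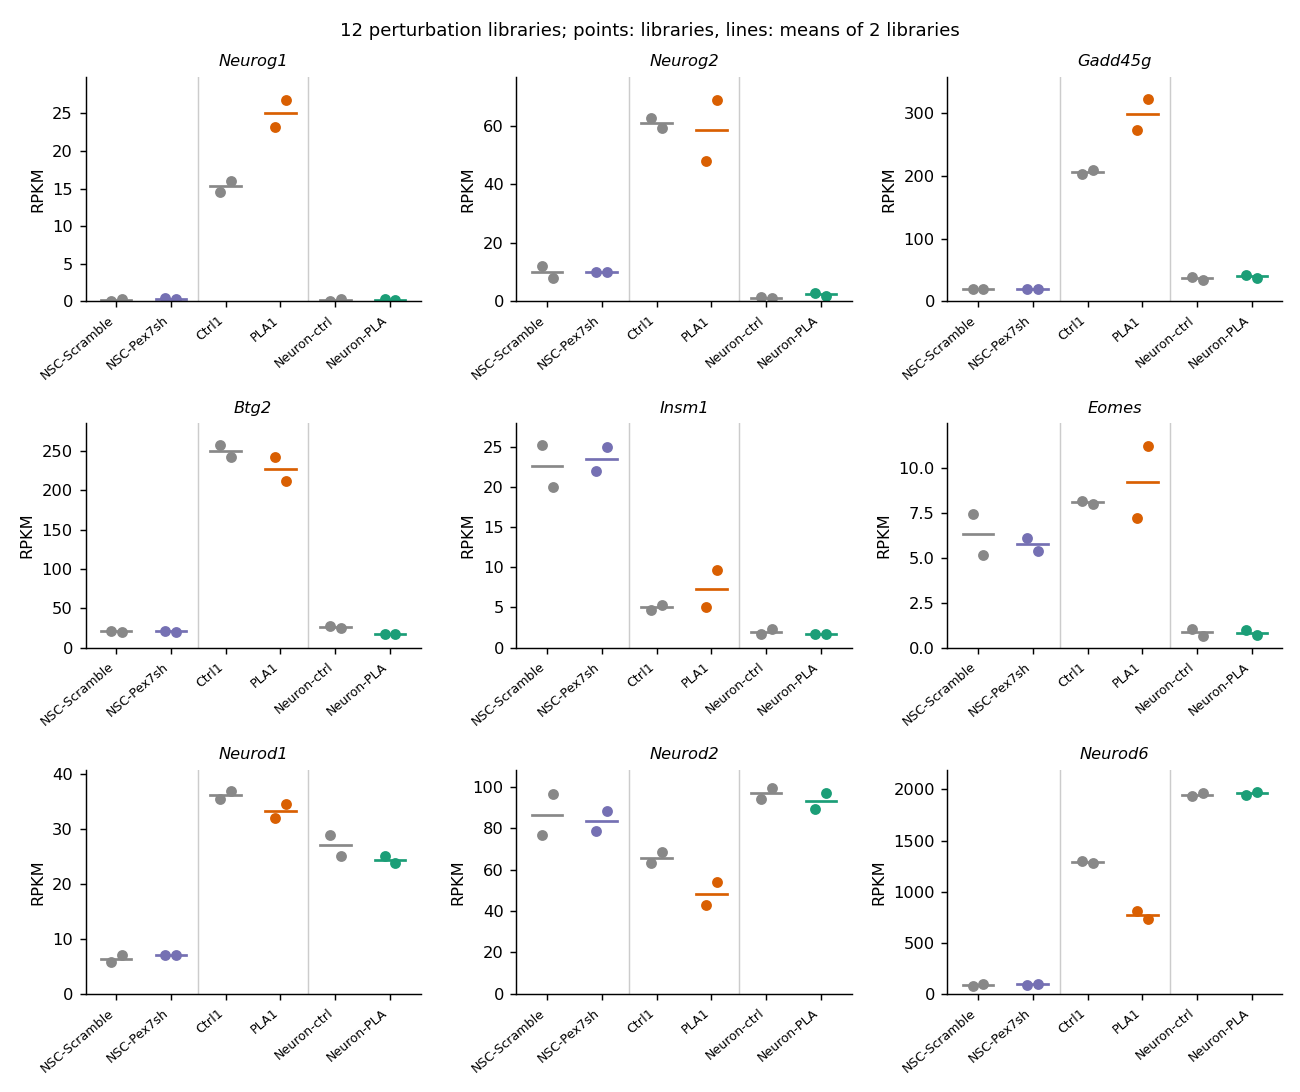
RPKM of each gene in the 12 perturbation libraries (points) with the mean of each pair (lines), 1 panel per gene with its own axis from 0. The PLA1 libraries of Neurod6 lie at 809 and 733 RPKM, below Ctrl1 at 1299 and 1281 RPKM, while Neuron-ctrl and Neuron-PLA lie together between 1939 and 1976 RPKM.

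The neuron set put the same overexpression into libraries named for neurons. Here 0 of the 7 genes tested passed limma, beside 0.877% of 11179 genes (0.376% higher, 0.501% lower), and 1976 genes had an unadjusted p under 0.05. Progenitor genes were low from the start: Eomes was at 1.05 and 0.631 RPKM in Neuron-ctrl against 0.985 and 0.685 RPKM in Neuron-PLA, Insm1 at 1.703 and 2.29 RPKM against 1.69 and 1.699 RPKM, and Neurog2 at 1.49 and 1.12 RPKM against 2.84 and 1.93 RPKM. Neurog1 had 0 and 9 reads in the controls (0 and 0.246 RPKM; 0 reads allow up to 0.0796 RPKM by a floor of 3 reads) and 9 and 8 reads with overexpression (0.254 and 0.169 RPKM). Eomes and Neurog1 were below the filter and were not tested, and the Neurog2 difference of 0.55 (SE 0.24), without overlap between the groups, did not pass (limma, adjusted p = 0.282).

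Btg2 came nearest to a call. It was at 26.8 and 24.7 RPKM in Neuron-ctrl and at 17.0 and 16.9 RPKM in Neuron-PLA, at 0.659 of the control mean. The change of -0.57 (SE 0.11) missed the threshold (limma, adjusted p = 0.0602) and passed it in limma-voom on recovered reads (0.0427). Gadd45g was at 38.7 and 34.5 RPKM against 42.4 and 37.6 RPKM, with overlap. Late factors were high and even, with Neurod6 at 1939 and 1962 RPKM against 1947 and 1976 RPKM, Neurod2 at 94.2 and 99.3 RPKM against 89.2 and 97.0 RPKM, and Neurod1 at 28.9 and 24.9965 RPKM against 24.9962 and 23.7 RPKM. Their changes were 0.01 (SE 0.04), -0.06 (SE 0.08) and -0.14 (SE 0.11).

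Of the pathway lists only the inhibitors held calls in this set with limma on log2 RPKM: 3 of 7 tested fell, beside 0.501% of all genes. They were Id3 (-0.94), Hes5 (-0.76) and Id2 (-0.42), with a list median of -0.43 beside 0.00 for all genes. In limma-voom on recovered reads 2 partners were called too, Tcf4 (0.21, adjusted p = 0.0102) and Tcf12 (-0.64, 0.0362). The 3 inhibitor calls were all lost without the filter (limma, adjusted p = 0.247 for each) and without Neuron-ctrl replicate 1, Neuron-ctrl replicate 2 or Neuron-PLA replicate 1 (0.0674 to 0.185). Markers of other cells were also lower in Neuron-PLA. Interneuron and ventral forebrain markers summed to 118 to 119 RPKM against 63.1 to 65.5 RPKM, with 5 of 6 falling. Radial glial markers summed to 309 to 318 RPKM against 162 to 201 RPKM, with 2 of 6 falling, beside 0.501% lower among all genes. The 5 endothelial markers summed to 19.2 to 19.8 RPKM against 1.29 to 1.65 RPKM. Only 1 of them, Cldn5, passed the filter, and it fell (-2.94). Neuronal markers summed to 1371 to 1387 RPKM and 1277 to 1402 RPKM, and 0 of 6 passed (2 in limma-voom, Dcx and Rbfox3). Cell cycle markers summed to 41.9 to 46.1 RPKM against 29.8 to 32.4 RPKM, with a median of -0.51, and 0 of 6 passed limma on log2 RPKM. In the same fit 1 of 6 microglial markers fell (116 to 118 RPKM against 66.2 to 75.6 RPKM in sum). Of 4 astrocyte markers tested 1 fell (206 to 219 RPKM against 110 to 136 RPKM for all 5). The part of these shifts in the values of the inhibitors and of Btg2 was not tested.

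**Figure D4:**
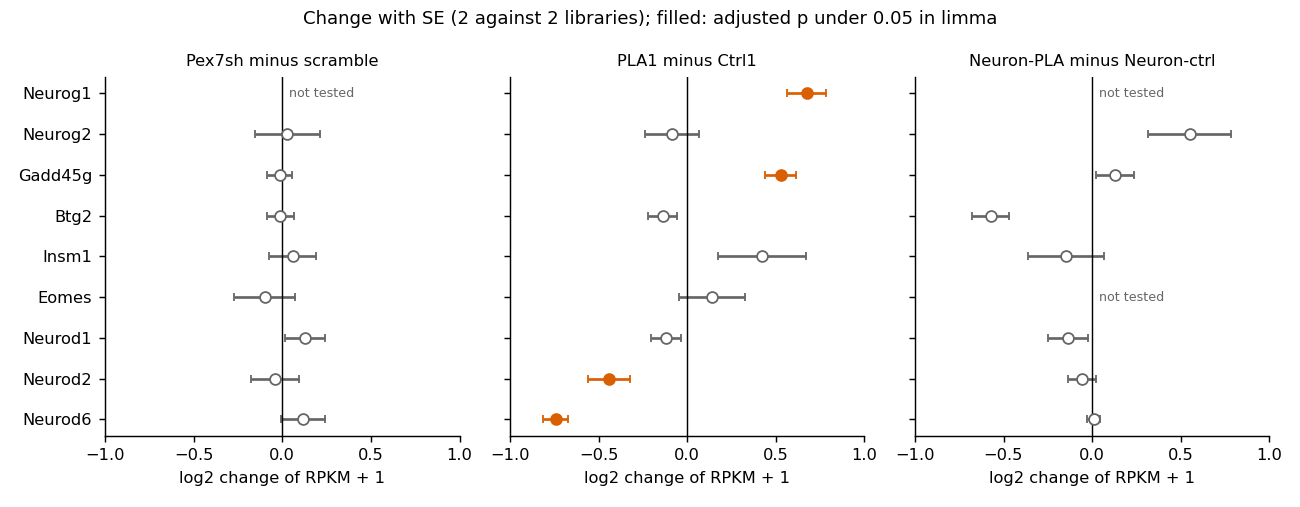
Log2 change of RPKM + 1 with its SE for each gene in the 3 perturbation comparisons, 2 against 2 libraries, filled where the adjusted p in limma was under 0.05. The filled points are Neurog1 (0.67), Gadd45g (0.53), Neurod2 (-0.44) and Neurod6 (-0.74), all in the PLA1 against Ctrl1 panel.

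Whether the 2 sets responded differently was tested as an interaction over their 8 libraries, as the change in the first set minus the change in the neuron set. It was called for 2 of the 9 genes (22.2%), beside 11.7% of 11705 genes (6.19% higher, 5.48% lower). Neurod6 differed by -0.75 (SE 0.08; limma, adjusted p = 0.000582), since it fell in the first set and lay between 1939 and 1976 RPKM in all 4 neuron libraries. This call held in all 14 alternatives. Btg2 differed by 0.43 (SE 0.12; limma, adjusted p = 0.0476), being lower with overexpression by 0.57 in the neuron set and by 0.14 in the first, neither of which passed by itself. The Btg2 difference lost its call in 11 of 14 alternatives, among them leaving out any library except PLA1 replicate 2 (adjusted p from 0.0666 to 0.166 in limma).

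For the remaining 7 genes a difference between the sets was not shown. Gadd45g (0.40, SE 0.14) had an adjusted p of 0.0975 in limma, Neurod2 (-0.39, SE 0.15) 0.137, and Neurog2 (-0.63, SE 0.26) 0.154. Neurog1 passed the filter of this fit through the first set alone, since in the neuron set it stood at 0 to 0.254 RPKM. Its value of 0.56 (SE 0.23; limma, adjusted p = 0.155) was -0.03 with a pseudocount of 0.1 and -1.19 in limma-voom, so nothing is read from it. Eomes also passed through the first set, since in the neuron set it stood at 0.631 to 1.05 RPKM, below the filter on average. Nothing is read from its value of 0.14 (SE 0.30) either. Without PLA1 replicate 2, Neurod2 was called (-0.55, adjusted p = 0.0377 in limma). In the pathway lists the change was more positive in the first set for the inhibitors Id1 (2.04), Hes5 (1.10) and Id4 (0.90), for Tcf12 (1.11) and Mfng (0.69), and more negative for Nhlh2 (-1.15), all called in limma. The Id4 call was lost without any 1 of 6 libraries (adjusted p from 0.0730 to 0.132 in limma), and that of Nhlh2 without Ctrl1 replicate 1 (0.0738). Gadd45a was also called (1.80), but it passed the filter only through PLA1 (2.60 and 3.07 RPKM, against at most 0.861 RPKM in the other 6 libraries and 0 in Neuron-PLA replicate 1), so its call shows no different response in the neuron set.

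**Figure D5:**
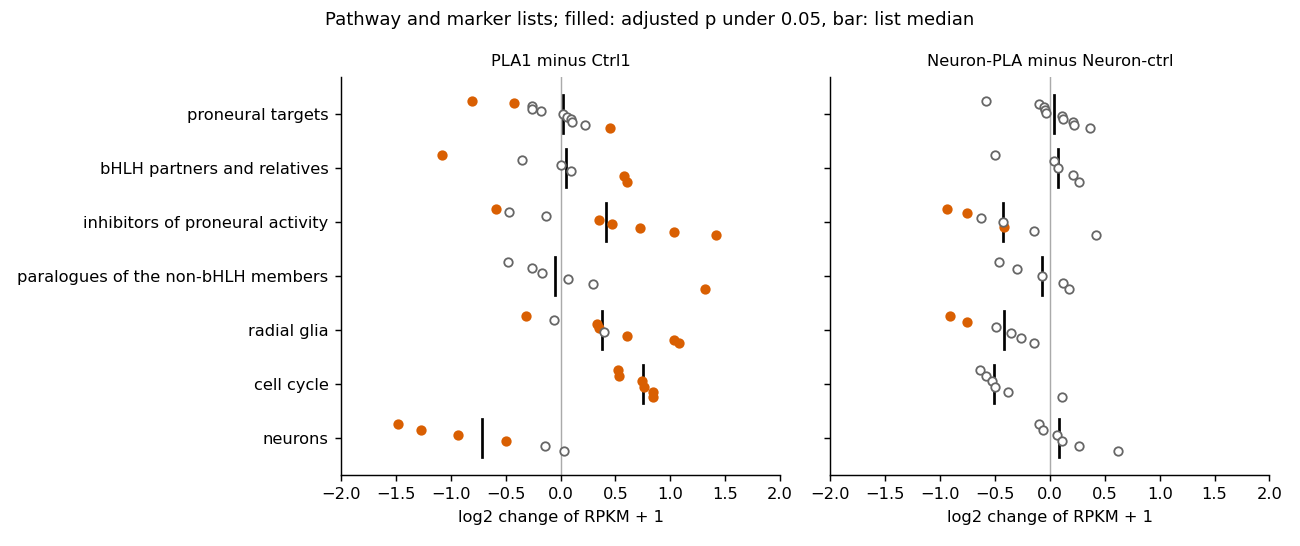
Log2 change of RPKM + 1 for the members of the pathway and marker lists in both overexpression sets (circles, filled where the adjusted p in limma was under 0.05) with the list median (bar). Inhibitors of proneural activity have a median of 0.41 in the first set and -0.43 in the neuron set. In the first set 6 of 6 cell cycle markers rose, beside 16.3% of all genes.

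Levels over all 12 conditions can be ordered on the RPKM scale, which is normalised within each library and was not tested between tables. Neurog2, Insm1, Eomes and Neurod2 were highest in the E14 brain. Neurog1 was highest in PLA1, followed by Ctrl1 and E11. Gadd45g was highest in PLA1 and then Ctrl1, with a mean of 206 RPKM in Ctrl1 against 97.5 RPKM at E14, and Btg2 was highest in Ctrl1 (249 RPKM) and PLA1 (227 RPKM), against 37.4 RPKM at E12.

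In the same order Neurod6 was highest in both neuron groups, whose ranges overlapped, then in Ctrl1 and PLA1, and its mean in Neuron-ctrl was 1950 RPKM against 398 RPKM at E14. Neurod1 was highest in Ctrl1 and PLA1 and lowest in the neural stem cells, where the 2 groups overlapped. The Neurod2 ranges of the 4 neuron and neural stem cell groups overlapped from one to the next, between 76.4 and 99.3 RPKM, and only Ctrl1, PLA1, E12 and E11 had lower means. Eomes was at 35.3 RPKM or above in every stage up to E16, in Ctrl1 and PLA1 between 7.20 and 11.3 RPKM, and lowest in the neuron groups. The ratio of Neurog2 to Eomes was 7.67 and 7.42 in Ctrl1 and 6.67 and 6.12 in PLA1, compared with 1.52 to 2.11 in the 6 stages and 1.55 to 1.87 in the 4 neural stem cell libraries.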

How the data were processed

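Libraries were made from 2 ug of Trizol-extracted RNA, per the labels' protocols; alignment with STAR 2.7.9a to mm10 and counting with HTSeq 0.6.0 are given in the submitters' processing notes. The authors deposited 4 tables, and their values are RPKM, as inferred from the values: multiplied by merged exon length (GENCODE M21) and a read total per library, 97.5% to 97.8% came out as whole reads within 0.01. Tables were normalised within libraries, so each test stayed within a table, and the interaction is a difference of within-table changes. All sample columns were used.

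Tests were run in R 4.3.3 with limma 3.58.1, whose variances followed a trend on the mean of log2(RPKM + 1), on genes averaging 1 RPKM or more over the fit, two-sided, Benjamini-Hochberg adjusted over all genes tested, called under 0.05. Fold changes on this scale understate those of low genes. Counting strand was not given in the sources used here, so overlapping antisense genes cannot be told apart. Each fit was also run, in its main form only, on simulated data with spread taken from these libraries, and no result is drawn from those runs. Alternatives were a pseudocount of 0.1, no filter, median-ratio and upper-quartile scaling, limma-voom on the recovered reads, a replicate block and each library left out.

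The 9 genes, the gene lists and the markers were chosen with earlier results of these data known. Named genes were the 9, the targeted genes, up to 4 called genes of smallest adjusted p per pathway list, and the 3 nearest genes of Eomes, Neurog2 and Neurod6. The partners and neuronal markers that limma-voom called in the neuron set were named after their values were seen. Hes1, Hes5, Olig2 and Tbr1 each stood in more than 1 list. 1 gene of the list of bHLH partners is not reported here and is in none of its counts, and of the overexpressed genes Plaat3 alone is reported. Cajal-Retzius, astrocyte, oligodendrocyte and erythroid markers were also summed: between Ctrl1 and PLA1 astrocyte markers were at 210 to 212 against 80.1 to 85.0 RPKM, and between Neuron-ctrl and Neuron-PLA erythroid markers at 82.3 to 89.0 against 30.8 to 40.5 RPKM. The astrocyte sum hides opposite changes: of 3 genes tested between Ctrl1 and PLA1, Apoe fell and Gja1 rose in limma, with a median of 0.14. Oligodendrocyte markers were at 429 and 217 RPKM in the scrambled libraries, with the Pex7 pair at 322 and 323 RPKM, and Cajal-Retzius markers reached at most 32.7 RPKM in any library. 1 symbol of 5 erythroid markers was not in the tables, and 152 symbols belonged to more than 1 gene.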

Additional observations from a re-analysis of the deposited data

Results flagged for a closer look

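The response to PLAAT3-PEX11 overexpression differed between the first and the neuron set for 2 of the 9 genes (22.2%) by the test of the difference itself, beside 11.7% of all 11705 genes tested. Neurod6 differed by -0.75 on the log2 scale (SE 0.08; limma, adjusted p = 0.000582), from 1299 and 1281 to 809 and 733 RPKM in the first set against 1939 and 1962 to 1947 and 1976 RPKM in the neuron set. Btg2 differed by 0.43 (SE 0.12; limma, adjusted p = 0.0476), and that call was lost in 11 of 14 alternatives. Over the 9 genes no group had more than 2 libraries, so no search for a library far from its group could be made.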

How the results depend on the processing

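The number of the 9 genes called was unchanged by pseudocount and by both scalings in every comparison except the interaction. Without the filter it went from 4 to 2 in the first set, and limma-voom raised it from 0 to 1 in the neuron set (Btg2). In the interaction it went from 2 to 1 without the filter, with either scaling and with limma-voom, and ranged from 1 to 3 with 1 library left out. For the slope it ranged from 2 (without E18) to 5 with 1 stage left out, and for the mid to late stages from 0 to 6 (without E16). Replicate numbers did not pair the libraries: the correlation of same-numbered deviations was 0.0101 in the knockdown, 0.0991 in the first set and 0.0468 in the neuron set. With the number as a replicate block the counts of the 9 were 0, 4, 0 and, for the interaction, 3 (Gadd45g added, adjusted p = 0.0425 in limma), and over all genes 1, 4297, 54 and 1438.

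Over all genes the first set held 3438 calls, and 1177 without the filter, 1575 without Ctrl1 replicate 1 and 2048 without PLA1 replicate 2. The neuron set held 98 calls, 0 without the filter (2280 at an unadjusted p under 0.05), 337 with limma-voom and 7 to 163 with 1 library left out. The interaction held 1367 calls, and 761 without the filter and 636 to 890 without Ctrl1 replicate 1, Ctrl1 replicate 2, PLA1 replicate 2 or Neuron-ctrl replicate 2. The slope held 5828 calls and 2537 without E18, the early to mid stages 0 and at most 18, and the mid to late stages 2 and at most 1968.

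Among the genes named, signs turned only for changes not called with all libraries; 1 turned value was itself called, the Neurod1 slope without E18 (0.23; limma, adjusted p = 0.0394). With 1 library left out, log2 changes in the knockdown ran from -0.23 to 0.29 for Neurog2, -0.046 to 0.020 for Gadd45g, -0.061 to 0.038 for Btg2, -0.10 to 0.22 for Insm1, -0.33 to 0.13 for Eomes, -0.0037 to 0.26 for Neurod1, -0.21 to 0.12 for Neurod2 and -0.038 to 0.27 for Neurod6. In the first set they ran from -0.34 to 0.17 for Neurog2 and -0.15 to 0.43 for Eomes, and in the neuron set from -0.12 to 0.0046 for Neurod2 and -0.0024 to 0.019 for Neurod6. The interaction ran from -0.15 to 0.43 for Eomes and -0.083 to 0.12 for Neurod1. Slopes ran from -0.21 to 0.14 for Insm1, -0.53 to 0.062 for Eomes and -0.12 to 0.23 for Neurod1. The early to mid difference ran from -0.10 to 0.17 for Gadd45g and -0.18 to 0.067 for Btg2, and the mid to late difference from -1.62 to 0.061 for Insm1, -1.20 to 0.24 for Neurod1, -0.60 to 0.19 for Neurod2 and -0.69 to 0.12 for Neurod6. The interaction of Neurog1 was -0.026 at a pseudocount of 0.1 and -1.19 in limma-voom, and that of Neurod1 was -0.026 with median-ratio and -0.019 with upper-quartile scaling. The slope of Neurod1 was 0.0049 with median-ratio scaling. Except where the setting itself tests more genes or leaves out libraries, the cause was not tested. Depth was lowest for Neurog1, which rested on 3 to 14 reads in the neural stem cells and 0 to 9 in the neuron set.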
